A study of Homo sapiens with 6 samples.

Results

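The genes examined were those whose symbols start with MRPL or MRPS followed by a number and that encode a protein, which are the genes of the mitochondrial ribosomal proteins. Of the 60483 Ensembl genes listed, 78 met this rule, and all 78 were among the 16198 genes with enough reads to be tested. RNA was sequenced from A2780, an ovarian carcinoma cell line, in 2 groups of 3 libraries, WT cells and a CDK12 KO clone derived from them. Each group carried its genotype label and no drug or time point. The KO cells had been transfected, in successive rounds, with a plasmid that encodes Cas9, GFP and a guide RNA against exon 1 of CDK12, and all KO libraries came from 1 clone, so the loss of CDK12 and any other property of that clone cannot be told apart. Whether the WT cells received a plasmid is not given in the sources used here. The study's karyotype describes the KO clone as near-tetraploid and lists a gain of chromosome 3 and of chromosome 5 among other gains and losses, and the members on these chromosomes were therefore set against the members on the others.

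Mitochondria hold their own ribosome, which makes the membrane subunits of the respiratory chain that mitochondrial DNA encodes. Its rRNAs are transcribed from mitochondrial DNA, while its proteins are encoded by nuclear genes spread over most chromosomes, made in the cytosol and imported. The large subunit joins amino acids into a chain and the small subunit decodes the mRNA. Some of the proteins have a counterpart in the bacterial ribosome and others were gained in the mitochondrial lineage. CDK12 is a kinase of the RNA polymerase II machinery that supports transcription elongation, particularly of long genes.

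Of the 78 members, 51 encode proteins of the large subunit and 26 proteins of the small subunit. MRPS30 and MRPS18A carry a small-subunit symbol, but their products sit in the large subunit and were counted there. MRPS36 was placed in neither subunit, because its product, which RefSeq names KGD4, is a component of the oxoglutarate dehydrogenase complex. It was kept because the rule on symbols includes it.

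Total counts ranged from 11098400 to 30899045 per library, and 3 counts, taken as the floor of detection, corresponded to 0.0971 to 0.270 CPM, the unit used throughout for counts scaled to a library's total. CDK12 was read at 103, 125 and 117 CPM in the WT libraries and at 99.0, 93.0 and 102 CPM in the KO libraries. Its log2 fold change was -0.23 ± 0.06 (SE, edgeR adjusted p = 0.00082), so its mRNA was still counted in KO. The study reports edited alleles of the gene and no CDK12 protein by western blot in the clone. Counts per gene do not tell edited from unedited mRNA, so whether the mRNA was edited was not tested here. Of 6 epithelial or ovarian carcinoma markers, 3 were tested, of which KRT8 and KRT18 were higher and EPCAM lower in KO. PAX8 and WT1 had too few reads to be tested, at most 0.219 and 0.200 CPM, and MUC16 was at or under the floor. The 3 KO values of PAX8 all lay below its WT values, on at most 6 counts per library. The summed level of the 6 markers was 68.1 to 73.9 CPM in WT and 114 to 119 CPM in KO. Most of it was KRT18 (means of 59.9 and 103 CPM). The leukocyte markers PTPRC and CD3E and the endothelial markers PECAM1 and CDH5 were at or under the floor, while CD14 (log2 fold change 1.02, edgeR adjusted p = 0.0156) and VWF (2.00, edgeR adjusted p = 0.000104) were higher in KO at levels of at most 0.966 and 0.817 CPM. The endothelial list summed to 0.073 to 0.3 CPM in WT and 0.674 to 0.892 CPM in KO. The fibroblast-type matrix genes COL1A1, DCN and LUM were all lower in KO, with a summed level of 603 to 651 CPM in WT and 113 to 132 CPM in KO. Nearly all of this was COL1A1 (means of 629 and 122 CPM), while DCN and LUM were at most 0.810 and 0.730 CPM in WT and had no counts in KO. The part of these differences between the WT cells and the clone in the values that follow was not tested. CPM values are shares of a library, so fewer cells and less RNA per cell cannot be told apart in them.

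The mitochondrial ribosomal protein genes moved in both directions and by small amounts. At an adjusted p under 0.05 in edgeR's quasi-likelihood test, 33 of the 78 (42.3%) were lower in KO and 16 (20.5%) were higher, against 32% and 31.9% of all tested genes, and 29 did not pass. In total 49 members (62.8%) were called, beside a background of 63.9%. Among the 12744 tested protein-coding genes, to which all members belong, 69.1% were called, 36.6% lower and 32.5% higher. The share of members called was thus close to the first background and under the second, with the share lower above both and the share higher under both. The median log2 fold change of the members was -0.06 with quartiles of -0.28 and 0.10, while the median was 0.00 over all tested genes and -0.02 over the protein-coding ones. Whatever their p, none of the 78 had a log2 fold change above 1 or below -1, the fold threshold of the study's methods, by edgeR, voom/limma or DESeq2, whereas 16% of all tested genes passed it with the adjusted p in edgeR (8.3% above 1 and 7.73% below -1). The members ran from a log2 fold change of -0.61 for MRPS23 to 0.55 for MRPS25.

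**Figure D1:**
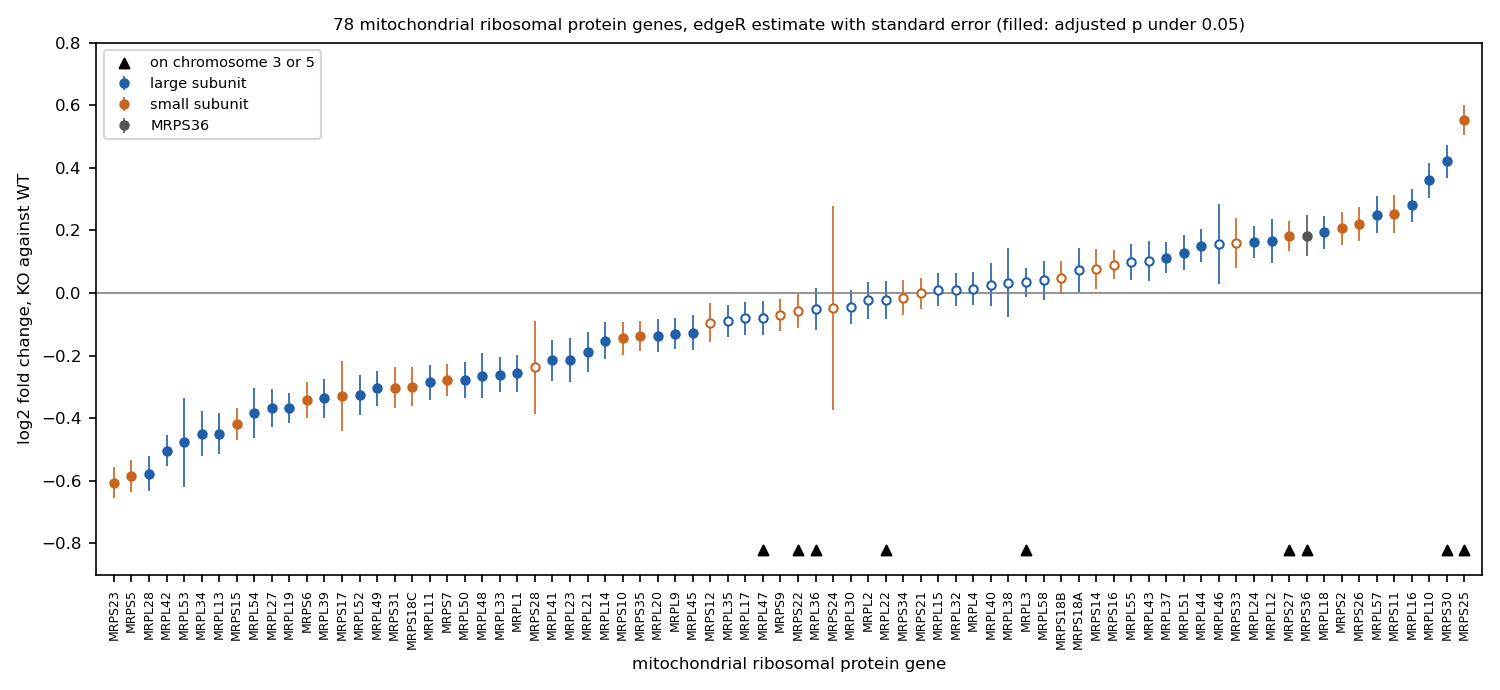
Log2 fold change of KO against WT (y axis) for each of the 78 genes (x axis, ordered by value), as points with the standard error of the edgeR fit from 3 libraries in each group, filled where the adjusted p is under 0.05. The values run from -0.61 to 0.55 with 33 filled points below 0 and 16 above, and triangles mark the 9 genes on chromosome 3 or 5, none of which is a filled point below 0.

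Read library by library, the 3 KO values lay below the 3 WT values for 34 members and above them for 15, and the groups overlapped for 29. Over all tested genes, 33.5% lay wholly below and 32.8% wholly above, 66.4% in either direction. Summed over the members, the level was 5055, 4907 and 4926 CPM in the WT libraries and 4751, 4865 and 4675 CPM in the KO libraries. All KO sums lay below all WT sums, with means of 4963 CPM (SD 80.5, n = 3) for WT and 4764 CPM (SD 95.7, n = 3) for KO. The same held for the sums over all tested genes. The KO mean was 0.960 times the WT mean for the members and 0.970 times for all tested genes. With 3 libraries against 3, an exact permutation test cannot go below p = 0.1, and nothing in the labels says that the libraries of a group came from separate cultures, so the p-values measure the spread between these libraries, which may be technical.

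The largest decreases were in genes of both subunits. MRPS23 encodes a small-subunit protein gained in the mitochondrial lineage and lies on the minus strand of chromosome 17 (chr17:57834781-57850056, GRCh38). It was read at 147, 144 and 138 CPM in WT and at 94.5, 97.7 and 89.7 CPM in KO. The groups were far apart, and the level fell by 34.3%, a log2 fold change of -0.61 ± 0.05 (SE, edgeR adjusted p = 2.39e-12). MRPS5 on chromosome 2 encodes a small-subunit protein whose bacterial counterpart lines the mRNA entry. Its level was 117, 117 and 125 CPM in WT against 77.0, 83.5 and 78.4 CPM in KO, again without overlap, with a log2 fold change of -0.59 ± 0.05 (SE, edgeR adjusted p = 1.03e-11). MRPL28, a large-subunit gene on chromosome 16, was read at 77.2, 72.1 and 69.2 CPM in WT and 47.9, 51.3 and 47.6 CPM in KO. All 3 KO libraries were below the WT libraries, and the log2 fold change was -0.58 ± 0.06 (SE, edgeR adjusted p = 1.08e-10). These 3 genes were each lower by about the same amount, from 33.0% to 34.3%.

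MRPL42, a mitochondria-specific large-subunit gene on chromosome 12, was read at 157, 147 and 148 CPM in WT and at 109, 101 and 108 CPM in KO (log2 fold change -0.50 ± 0.05 SE, edgeR adjusted p = 1.58e-10). MRPL34 on chromosome 19, which encodes the counterpart of a small bacterial large-subunit protein, was read at 37.7, 33.7 and 37.3 CPM in WT and at 27.4, 28.3 and 22.9 CPM in KO (-0.45, edgeR adjusted p = 2.01e-06). MRPL13 on chromosome 8 had 34.9, 32.8 and 32.0 CPM in WT and 23.6, 24.6 and 25.1 CPM in KO (-0.45, edgeR adjusted p = 3.55e-07). In each of these genes every KO library was below every WT library. MRPS15 on chromosome 1, counterpart of a bacterial protein that binds the small-subunit rRNA, had 100.1, 97.2 and 97.5 CPM in WT and 71.3, 77.5 and 71.9 CPM in KO (-0.42, edgeR adjusted p = 1.71e-08). MRPL53 on chromosome 2 was a low-level gene, with 4.85, 4.91 and 6.30 CPM in WT and 3.46, 4.27 and 3.26 CPM in KO (-0.48 ± 0.14 SE, edgeR adjusted p = 0.00416). Its groups did not overlap, but its standard error was larger than that of the other 7 genes with the largest decreases. MRPL28, MRPL42 and MRPL53 share exon positions with another listed gene on the same strand (PGAP6, RN7SL737P and CCDC142), so how reads were assigned to them is uncertain. MRPL34 and MRPL13 share exon positions with ABHD8 and MTBP on the opposite strand, and whether the counting used strand is not given.

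Apart from the 2 genes on chromosomes 3 and 5 described further on, the largest increase was that of MRPL10 on chromosome 17. Its product is the stalk protein that anchors the MRPL12 copies on which translation factors dock. MRPL10 was read at 87.2, 77.8 and 73.0 CPM in WT and at 103, 100.1 and 105 CPM in KO, a log2 fold change of 0.36 ± 0.06 (SE, edgeR adjusted p = 1.18e-06), with no overlap. MRPL12 itself had 24.1, 22.9 and 25.4 CPM in WT and 28.2, 27.8 and 24.2 CPM in KO, groups that overlapped, with a log2 fold change of 0.17 (edgeR adjusted p = 0.0418). MRPL12 shares exon positions with another listed gene on the same strand, so how its reads were assigned is uncertain. MRPL16 on chromosome 11, counterpart of a bacterial protein near the peptidyl transferase centre, had 77.4, 73.8 and 82.2 CPM in WT and 96.6, 96.0 and 88.9 CPM in KO (0.28, edgeR adjusted p = 3e-05). The KO libraries were all above the WT libraries for MRPL10 and MRPL16.

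The remaining large increases were of like size and lay on 4 chromosomes. MRPS11, on chromosome 15, had 40.0, 38.4 and 35.03 CPM in WT and 44.6, 45.1 and 46.9 CPM in KO (0.25, edgeR adjusted p = 0.000477). MRPL57, a mitochondria-specific gene on chromosome 13, had 37.3, 35.9 and 35.3 CPM in WT and 42.6, 44.1 and 42.7 CPM in KO (0.25, edgeR adjusted p = 0.00038). Neither gene had a KO library within the WT range. MRPS26 on chromosome 20 had 55.0, 50.5 and 52.9 CPM in WT and 62.0, 61.0 and 61.5 CPM in KO (0.22, edgeR adjusted p = 0.000668). MRPS2 on chromosome 9 had 63.9, 67.5 and 62.4 CPM in WT and 72.5, 77.9 and 73.7 CPM in KO (0.21, edgeR adjusted p = 0.00113). These groups did not overlap either. The 8 members with the largest increases were picked by fold change and adjusted p in these same libraries. That each of them was higher in every KO library than in any WT library therefore adds no support.

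**Figure D2:**
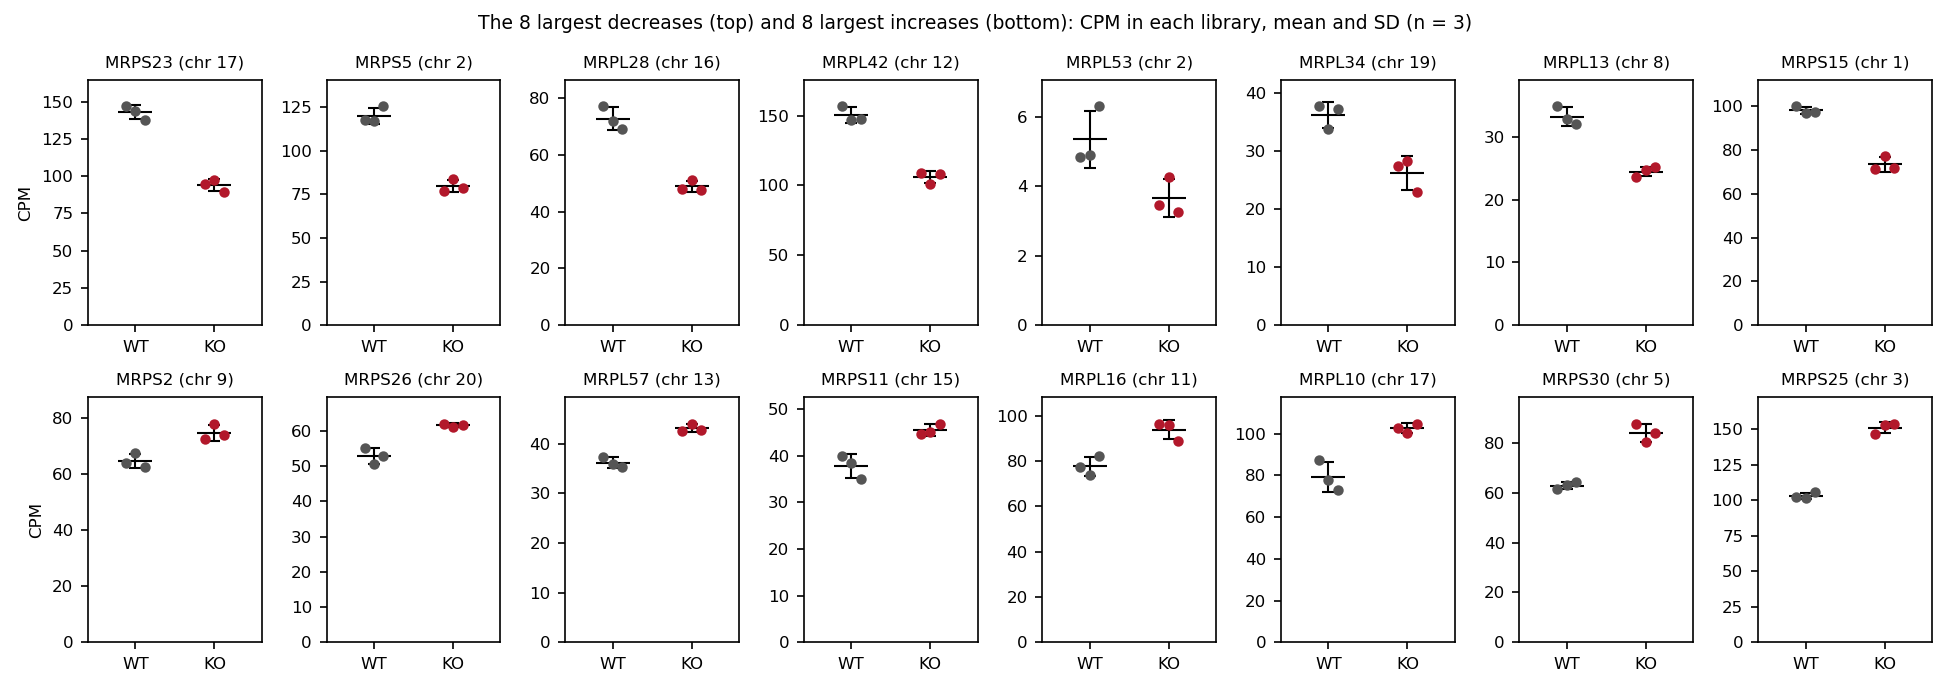
Expression in CPM (y axes, from 0) in each library for the 8 members with the largest decreases (top row) and the 8 with the largest increases (bottom row) at an adjusted p under 0.05, with points for the 3 WT and 3 KO libraries and bars for the mean and SD. The groups do not overlap in any panel, and the changes run from a fall from 143 to 94.0 CPM in MRPS23 to a rise from 103 to 151 CPM in MRPS25.

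On chromosomes 3 and 5, 9 members were measured, 4 on chromosome 3 and 5 on chromosome 5. Of these, 4 were higher in KO, none was lower at the adjusted p, and 5 did not pass, whereas of the 69 members on the other chromosomes 12 were higher and 33 lower. For comparison, 57.6% of the 1619 tested genes on chromosomes 3 and 5 were called higher and 16.1% lower, against 29.1% and 34% of the 14370 tested genes on the other chromosomes. In either direction, 4 of the 9 members (44.4%) were called beside 73.6% of the tested genes on these chromosomes, and 45 of the 69 others (65.2%) beside 63.1%. The median log2 fold change of all tested genes was 0.25 on chromosome 3 and 0.27 on chromosome 5, the highest medians of any chromosome. The 9 members had a median of only 0.03, beside 0.26 for all tested genes of the same chromosomes, and the 69 others a median of -0.09 beside -0.03. The members on chromosomes 3 and 5 were thus 0.13 above the members elsewhere, while over all tested genes the same gap was 0.29. This contrast held for medians only, since with means the gap was 0.24 for the members and 0.23 for all tested genes. The summed CPM on chromosomes 3 and 5 was likewise 1.13 times as high in KO as in WT for the members and for all tested genes there. With 9 genes this is a description of those genes and no test of the group.

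MRPS25 was the member with the largest increase of all 78. It encodes a mitochondria-specific small-subunit protein and lies on the minus strand of chromosome 3 (chr3:15009611-15065339, GRCh38). The WT libraries held 102, 102 and 106 CPM and the KO libraries 147, 153 and 154 CPM. The level was 46.6% higher in KO, with no overlap (log2 fold change 0.55 ± 0.05 SE, edgeR adjusted p = 9.9e-12). Part of its exons overlaps NR2C2 on the opposite strand. MRPS30 on chromosome 5 (chr5:44808947-44820428, plus strand), a large-subunit gene despite its symbol, had 61.4, 62.9 and 64.2 CPM in WT and 87.7, 80.3 and 83.7 CPM in KO. It was 33.8% higher, also without overlap (0.42 ± 0.05 SE, edgeR adjusted p = 2.52e-08). MRPS25 and MRPS30 were the only 2 of the 9 to lie above the median of their chromosome, at its percentiles 73.4 and 64.1.

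The other members on chromosome 5 had smaller differences. MRPS27, which encodes a small-subunit protein of the pentatricopeptide repeat type, had 164, 165 and 153 CPM in WT and 183, 181 and 185 CPM in KO (log2 fold change 0.18, edgeR adjusted p = 0.00128). MRPS36 had 26.1, 25.8 and 27.4 CPM in WT and 28.8, 30.3 and 30.4 CPM in KO (0.18, edgeR adjusted p = 0.0139, and 0.0546 without WT replicate 2 in a range from 0.00553 over the alternatives). Both were higher in every KO library, yet both lay below the median of chromosome 5, at the percentiles 40.2 and 40.4. MRPL36, whose bacterial counterpart is a small zinc-binding protein, had 31.2, 27.5 and 29.7 CPM in WT and 27.7, 29.8 and 27.4 CPM in KO (-0.05, edgeR adjusted p = 0.51). MRPL22, whose counterpart lines the exit tunnel, had 43.98, 38.8 and 41.2 CPM in WT and 41.8, 41.1 and 38.9 CPM in KO (-0.02, edgeR adjusted p = 0.754). The groups of MRPL36 and MRPL22 overlapped.

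On chromosome 3, the members other than MRPS25 had overlapping groups. MRPL47 had 54.0, 55.5 and 54.6 CPM in WT and 50.2, 54.7 and 50.1 CPM in KO (log2 fold change -0.08 ± 0.06 SE, edgeR adjusted p = 0.213). MRPS22 had 57.0, 53.8 and 60.0 CPM in WT and 55.7, 53.9 and 53.4 CPM in KO (-0.06 ± 0.06 SE, edgeR adjusted p = 0.376). MRPL3 had 153, 157 and 157 CPM in WT and 161, 156 and 161 CPM in KO (0.03 ± 0.05 SE, edgeR adjusted p = 0.544). MRPL3 encodes a protein of the early-assembling core of the large subunit. Within chromosome 3 these genes ranked low, at the percentiles 20.8 for MRPL47, 21.8 for MRPS22 and 28.0 for MRPL3, and 7 of the 9 members on both chromosomes lay under their chromosome's median. A p that misses the threshold does not show that their levels were equal in the groups.

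**Figure D3:**
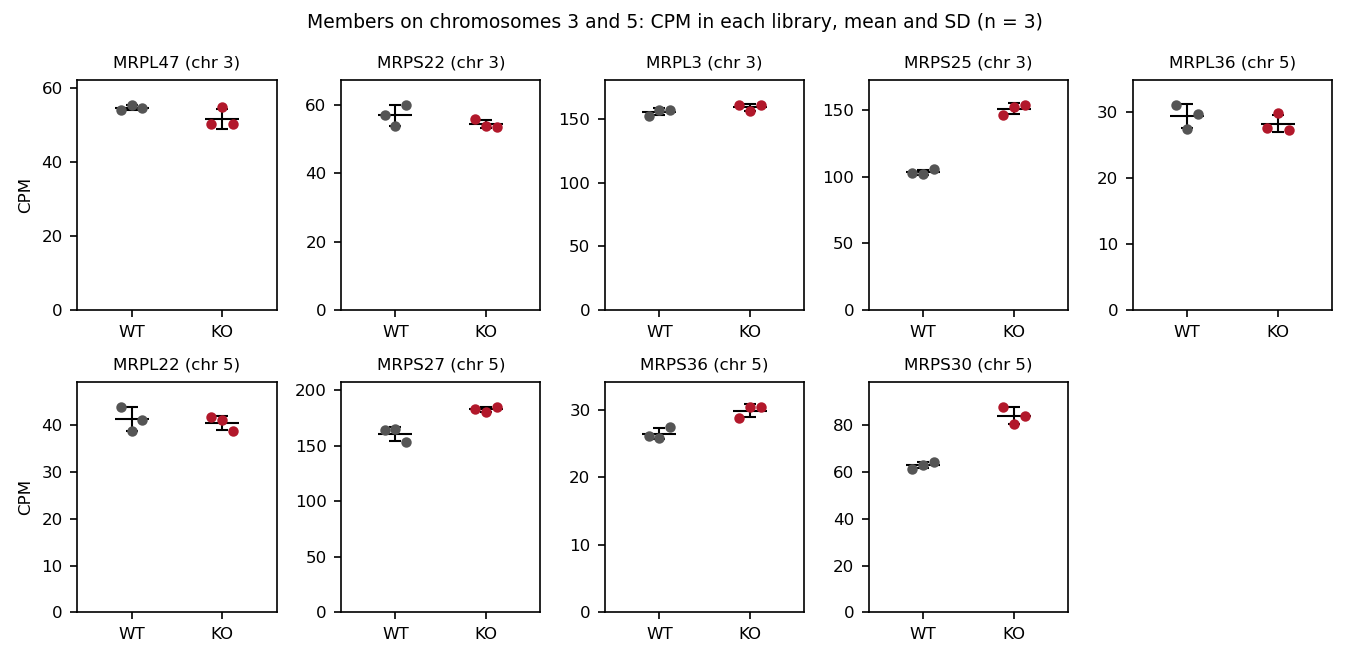
Expression in CPM (y axes, from 0) of the 9 members on chromosomes 3 and 5 in each library, with points for the 3 WT and 3 KO libraries and bars for the mean and SD. MRPS25 and MRPS30 show the widest separation, MRPS27 and MRPS36 a smaller one, and in the other 5 panels the points of the groups overlap.

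**Figure D4:**
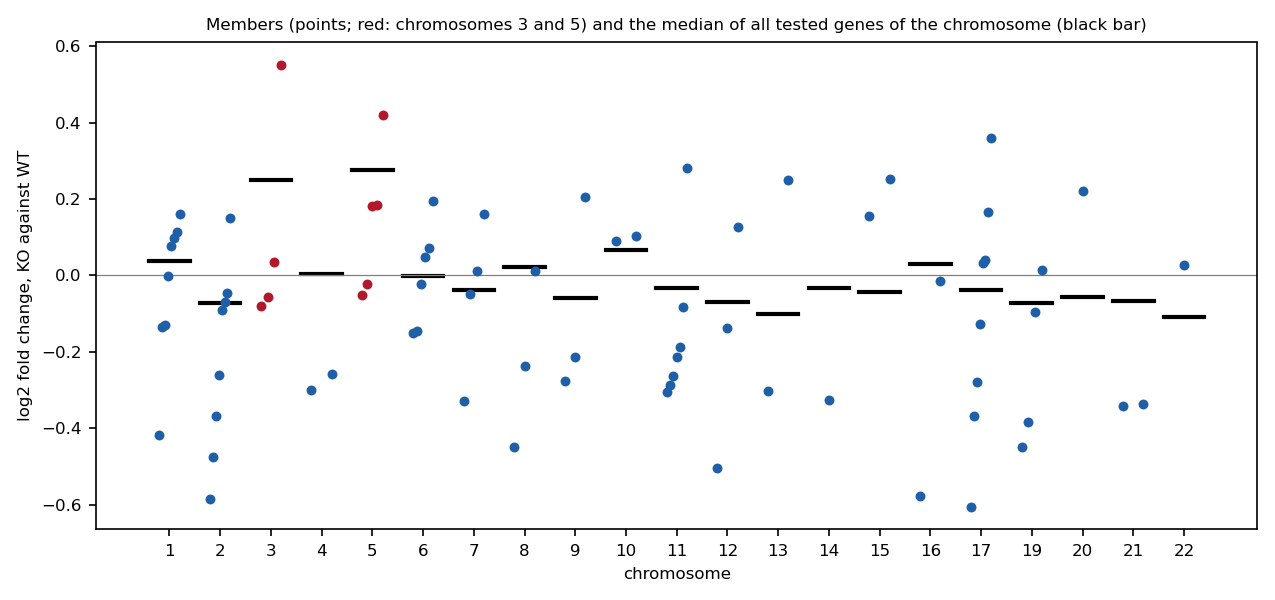
Log2 fold change of KO against WT (y axis) for each member (points, red on chromosomes 3 and 5) by chromosome (x axis, chromosomes without a member left out), with a bar at the median of all tested genes of that chromosome. The bars of chromosomes 3 and 5 stand highest, at 0.25 and 0.27, and 7 of the 9 red points lie below their bar.

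On several other chromosomes the members called went in both directions. Of the 8 members on chromosome 2, 4 were lower and 1 was higher, and of the 7 on chromosome 11, 5 were lower and 1 was higher. Chromosome 1, also with 8 members, had 3 lower and 2 higher. On chromosome 17, MRPS23, the member with the largest decrease, and MRPL10, that with the largest increase outside chromosomes 3 and 5, lie on the same chromosome, where the 8 members comprised 4 lower and 2 higher. Of all tested genes, 38.9% were lower and 25.5% higher on chromosome 2, 34.5% and 26.0% on chromosome 11, and 35.2% and 27.2% on chromosome 17. On chromosome 1 these shares were 29.9% and 36.0%. All members called on chromosomes 4, 19 and 21, 2 on each, were lower, beside 33.2%, 36.3% and 33.1% of all tested genes. Where 1 member was called, it was lower on chromosomes 7, 8, 14 and 16 and higher on chromosomes 15 and 20. Chromosome 11 had a median of -0.21 over its members and of -0.03 over all its 855 tested genes.

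To see how far the members followed their surroundings, each was set beside the median log2 fold change of the 10 nearest tested genes, 5 on either side. Of the 78 members, 50 had the sign of their neighbours' median, and across members Pearson's r was 0.32 and Spearman's rho 0.40 (n = 78 genes, which share libraries and are not independent). The same values were not computed over all tested genes, so whether they are particular to the members was not tested. MRPS25 stood beside neighbours with a median of 0.35, and MRPS36 beside neighbours with 0.42. Other members moved apart from their surroundings. MRPS5 fell with a log2 fold change of -0.59, while its neighbours had a median of 0.26. MRPL23 on chromosome 11 had 28.5, 30.2 and 28.8 CPM in WT and 23.6, 27.8 and 23.9 CPM in KO (-0.21, edgeR adjusted p = 0.00857), beside a neighbour median of 0.76. MRPL39 on chromosome 21 had 43.0, 40.9 and 39.8 CPM in WT and 34.1, 33.8 and 30.1 CPM in KO (-0.34, edgeR adjusted p = 2.29e-05), where the neighbours had a median of -1.77. MRPL17 had 67.7, 68.1 and 70.2 CPM in WT and 65.3, 67.1 and 61.5 CPM in KO (-0.08, edgeR adjusted p = 0.18), beside a neighbour median of -0.82. The KO libraries of these genes all lay under the WT libraries, though MRPL17 did not pass the test. MRPL23, MRPL39 and MRPL17 were singled out after their values were seen, as the points farthest from the others.

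**Figure D5:**
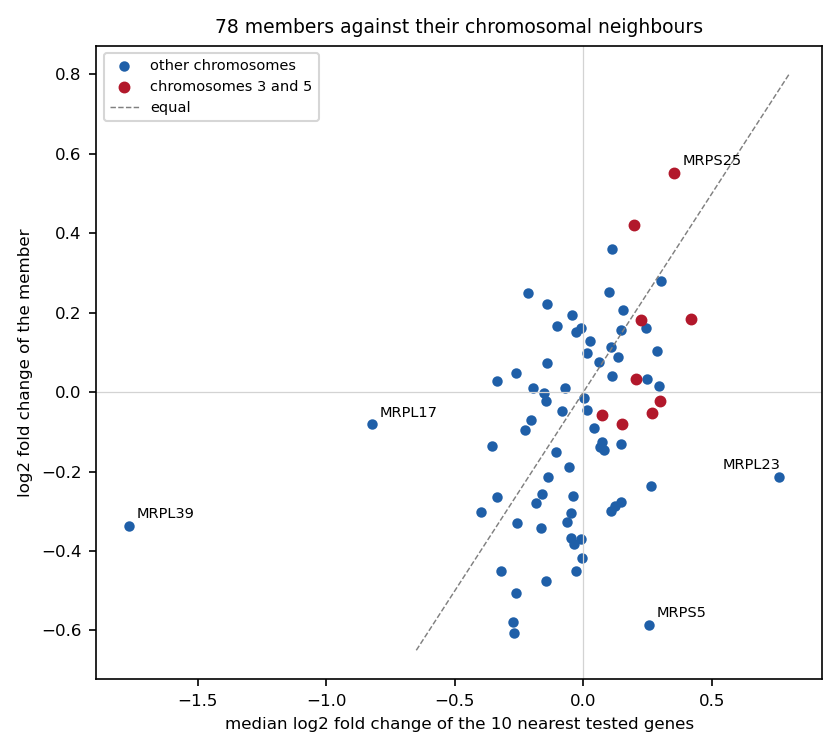
Log2 fold change of each of the 78 members (y axis) against the median log2 fold change of its 10 nearest tested genes (x axis), red for members on chromosomes 3 and 5, with a dashed line where both are equal. The points rise loosely from left to right (Pearson's r 0.32), with MRPL39 at a neighbour median of -1.77 and MRPL23 at 0.76 far from the line.

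Many members start close to another gene. For 27 of the 78 (34.6%), the start of a protein-coding gene on the opposite strand lay within 1000 bases, compared with 1727 of the 12744 tested protein-coding genes (13.6%). One such pair consists of 2 members, MRPL46 and MRPS11, whose starts are 320 bases apart on chromosome 15. MRPL46 was read at 4.85, 5.84 and 7.65 CPM in WT and at 6.71, 6.58 and 6.07 CPM in KO, overlapping groups with a log2 fold change of 0.16 ± 0.13 (SE, edgeR adjusted p = 0.293), beside 0.25 for MRPS11. MRPL46 shares exon positions with another listed gene on the same strand, so its low level is uncertain. In other pairs the partner moved far more than the member. MITD1, a gene of cell division, shares its start region with MRPL30 and had a log2 fold change of -0.95 (edgeR adjusted p = 1.77e-15) where MRPL30 had -0.05 (edgeR adjusted p = 0.476). MRPL30 also shares exon positions with other listed genes on the same strand. PPP1R10, a regulatory subunit of protein phosphatase 1, had 0.75 (edgeR adjusted p = 1.97e-14) where MRPS18B had 0.05. SARS2, the mitochondrial seryl-tRNA synthetase, had -0.73 (edgeR adjusted p = 2.89e-06) where MRPS12 had -0.09 (edgeR adjusted p = 0.195). The pair of MRPL13 and MTBP moved alike, with -0.45 and -0.49. Both genes were called higher for MRPL57 with SKA3 (0.25 and 0.17), MRPS2 with PIERCE1 (0.21 and 0.29) and MRPS27 with PTCD2 (0.18 and 0.57). The calls went in opposite directions for MRPL14 with TMEM63B (-0.15 and 0.37) and MRPL18 with TCP1 (0.19 and -0.35). MRPL13, MRPS2 and MRPS27 share exon positions with these partners on the opposite strand. Whether the counting used strand is not given in the sources used here.

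The members also share features that the rule on symbols did not use. Their genes were short, with a median span of 11940.5 bases beside 33585.5 for all tested protein-coding genes, and their canonical transcripts had a median of 1242 bases and 5 exons, beside 3379 bases and 9 exons. Their median level in WT was 56.0 CPM, beside 34.0 CPM, and per kilobase of canonical transcript it was 40.0 beside 9.40 CPM per kilobase. Across the members, the log2 fold change had a Pearson's r of -0.15 and a Spearman's rho of -0.21 with the log10 gene span, 0.00 and 0.09 with the log10 transcript length, and 0.05 and 0.04 with the log2 WT level (n = 78 genes, which share libraries).

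Promoters were searched in the RefSeq table of build GRCh38.p14, which spans 250 bases before to 50 bases after each start and held 69 of the 78 members. Not matched were MRPL2, MRPL10, MRPL13, MRPL15, MRPL21, MRPL23, MRPL35, MRPS28 and MRPS36. The motifs sought, on both strands, were AAGATGGC, a core that the factor YY1 binds, CCGGAAGT, a core of the ETS family, and the palindromic core of NRF1 with 1 base left free. NRF1 and YY1 are known as regulators of nuclear genes for mitochondrial proteins. The YY1 core was found in 20 of the 69 promoters (28.99%), beside 3.03% of the 27305 promoters of the table. The ETS core was found in 11 (15.9%) beside 4.44%, and the NRF1 core in 8 (11.6%) beside 6.28%. The table was not cut down to tested or protein-coding genes, so its shares are no matched background for the members. No 2 matches of different motifs overlapped in a member. At least 1 of these motifs was present in 32 members (46.4%), beside 12.5% of all promoters. The following stretches of 30 bases are shown because they belong to members on chromosomes 3 and 5 whose levels did not pass the test, together with 1 member that fell (MRPL53) and 1 that rose (MRPL57). Stretches that reach past the start are not shown, among them that of MRPL22, which also holds the YY1 core. Each is written 5′ to 3′ on the strand of the gene, with the motif, or its reverse complement, in capitals.
MRPL47, ETS core, chr3:179604659-179604688, minus strand: ggcttgagacgCCGGAAGTgacgctatcgt
MRPL47, YY1 core, chr3:179604712-179604741, minus strand: ggcaggatgtgGCCATCTTaagtgagggca
MRPS22, ETS core, chr3:139343903-139343932, plus strand: gggcccggaagACTTCCGGccctttccgcc
MRPL3, ETS core, chr3:131502985-131503014, minus strand: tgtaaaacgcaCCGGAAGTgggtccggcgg
MRPL36, YY1 core, chr5:1799854-1799883, minus strand: ccccccccgccGCCATCTTccttcctggca
MRPL36, NRF1 core, chr5:1799928-1799957, minus strand: tcgcactccaGCGCCTGCGCactcgctgct
MRPL53, ETS core, chr2:74472734-74472763, minus strand: gcagccggcggCCGGAAGTctatcccgcag
MRPL57, NRF1 core, chr13:21176574-21176603, plus strand: cctcggctctGCGCAGGCGCagtcctctct

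By direction, the YY1 core was in 7 of the 30 matched members that were lower in KO (23.3%), in 3 of the 14 that were higher (21.4%) and in 10 of the 25 that did not pass (40%). The ETS core was in 4, 2 and 5 members of the same groups, and the NRF1 core in 2, 1 and 5. Differences between these small groups were not tested. The median GC content was 60.3% over the members' promoters and 58.3% over the table. A match is a run of letters in this window and says nothing of binding in these cells.

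By subunit, the large-subunit genes comprised 10 that were higher and 23 that were lower among 51, with a median log2 fold change of -0.08, and the small-subunit genes 5 and 10 among 26, with a median of -0.06. Among the 46 members with a bacterial counterpart 7 were higher and 20 lower, with a median of -0.09, and among the 31 mitochondria-specific members 8 were higher and 13 lower, with a median of 0.03. Within the small subunit, the 16 genes with a bacterial counterpart had a median of -0.12 and the 10 mitochondria-specific genes one of 0.02. Over all tested protein-coding genes, 32.5% were higher and 36.6% lower. Differences between the classes were not tested.

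The MRPS18 paralogs descend from the bacterial protein S18 and occupy different sites of the ribosome. MRPS18C on chromosome 4, which takes the bacterial position in the small subunit, had 38.5, 37.3 and 34.9 CPM in WT and 30.2, 30.7 and 29.7 CPM in KO. It fell with a log2 fold change of -0.30 ± 0.06 (SE, edgeR adjusted p = 8.77e-05), and its groups did not overlap. MRPS18B on chromosome 6, also in the small subunit, had 56.1, 57.6 and 54.0 CPM in WT and 58.7, 56.6 and 59.0 CPM in KO (0.05 ± 0.05 SE, edgeR adjusted p = 0.439). MRPS18A on chromosome 6, in the large subunit, had 27.7, 28.9 and 23.8 CPM in WT and 29.3, 29.3 and 27.2 CPM in KO (0.07 ± 0.07 SE, edgeR adjusted p = 0.371). The groups of MRPS18A and MRPS18B overlapped, and the difference between the paralogs was not tested.

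Levels were compared between members only per kilobase of canonical transcript. MRPS21, the highest, had a WT level of 166 CPM per kilobase and was read at 186, 173 and 180 CPM in WT and at 176, 190 and 172 CPM in KO. Its log2 fold change was 0.00 ± 0.05 (SE, edgeR adjusted p = 0.981), with overlapping groups. MRPL20 followed at 163 CPM per kilobase in WT, with 118, 113 and 112 CPM in WT and 106, 110 and 96.5 CPM in KO (-0.14, edgeR adjusted p = 0.023). MRPL24 had 128 CPM per kilobase in WT, with 119, 110 and 109 CPM in WT and 129, 128 and 121 CPM in KO (0.16, edgeR adjusted p = 0.00592). MRPL20 and MRPL24 thus moved in opposite directions, each with separate groups. The call of MRPL20 was lost in 4 alternatives, where its adjusted p reached 0.202 without KO replicate 3 in a range from 0.00599, and the gene shares exon positions with RN7SL657P and with its antisense gene MRPL20-AS1.

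At the other end of the scale were MRPS24, MRPS33 and MRPS28, small-subunit genes at 0.857, 3.56 and 4.34 CPM per kilobase in WT. These ranks depend on the canonical length, which was 4210 bases for MRPS33, and the isoforms expressed in these cells were not examined. MRPS28 had 3.25, 3.70 and 3.96 CPM in WT and 2.93, 3.05 and 3.15 CPM in KO, a log2 fold change of -0.24 ± 0.15 (SE, edgeR adjusted p = 0.165). Its groups did not overlap, but it did not pass the test. MRPS28 shares exon positions with another listed gene on the same strand, so its low level is uncertain. MRPS33 had 15.9, 14.2 and 14.9 CPM in WT and 17.3, 16.9 and 15.9 CPM in KO (0.16 ± 0.08 SE, edgeR adjusted p = 0.0787). Its groups overlapped by a narrow margin, and its adjusted p crossed the threshold in 3 of the alternative analyses, with a range from 0.036 to 0.316. MRPS24 was read with 20, 16 and 5 counts in WT and 17, 12 and 11 counts in KO, which allowed no difference to be detected at this depth (-0.05 ± 0.33 SE, edgeR adjusted p = 0.906). It shares exons with the readthrough gene URGCP-MRPS24, and how reads in such exons were assigned is not given in the sources used here, so its low level is uncertain.

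Proteins of the mitochondrial ribosome are also encoded by genes with other symbols. DAP3, the small-subunit protein mS29, which binds GTP, was read at 236, 236 and 248 CPM in WT and at 207, 215 and 209 CPM in KO (log2 fold change -0.19, edgeR adjusted p = 0.000663). PTCD3, a small-subunit protein of the pentatricopeptide repeat type, had 173, 164 and 165 CPM in WT and 140, 143 and 140 CPM in KO (-0.25, edgeR adjusted p = 2.73e-05). AURKAIP1 had 85.8, 81.7 and 93.4 CPM in WT and 78.8, 79.8 and 71.2 CPM in KO (-0.17, edgeR adjusted p = 0.00881). GADD45GIP1, a large-subunit protein, had 57.5, 52.8 and 55.2 CPM in WT and 47.5, 46.5 and 44.1 CPM in KO (-0.26, edgeR adjusted p = 0.000191). All 4 were lower in KO without overlap, though the call of AURKAIP1 was lost without WT replicate 3 and without KO replicate 3, with adjusted p values of up to 0.0875 in a range from 0.0027. CHCHD1 went the other way, with 67.5, 61.4 and 58.1 CPM in WT and 67.5, 71.1 and 67.3 CPM in KO (0.13, edgeR adjusted p = 0.0432), and its groups overlapped. Its call was lost in 7 of the alternative analyses, with adjusted p values from 0.00589 to 0.233.

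The ribosome's rRNAs are transcribed in the mitochondrion, and how rRNA was removed from the libraries is not given in the sources used here. MT-RNR1, the small-subunit rRNA, was read at 1084, 967 and 991 CPM in WT and at 1209, 1260 and 1227 CPM in KO, a log2 fold change of 0.28 ± 0.05 (SE, edgeR adjusted p = 1.22e-05), without overlap. MT-RNR2, the large-subunit rRNA, had 15526, 14895 and 14054 CPM in WT and 14260, 15094 and 14258 CPM in KO (-0.03 ± 0.06 SE, edgeR adjusted p = 0.68), with overlapping groups. Of the 13 mRNAs that mitochondrial DNA encodes, 3 were higher (23.1%) and 5 lower (38.5%), with a median of -0.09, and the groups did not overlap for 4 (30.8%). Over all tested genes, 31.9% were higher and 32% lower, and the groups did not overlap for 66.4%. WT replicate 3 stood apart, with a summed level of these mRNAs of 58999 CPM, against 73386 and 73401 CPM in the other WT libraries and 64378 to 66248 CPM in KO. Without that library 1 was higher and 7 were lower, with a median of -0.19, beside 29.8% and 30.6% of all tested genes. MT-ND3 and MT-ND4, subunits of respiratory complex I, each fell with a log2 fold change of -0.31 (edgeR adjusted p = 6.3e-06 and 0.000142), and MT-ND6, the complex I subunit encoded on the other strand of mitochondrial DNA, rose with 0.28 (edgeR adjusted p = 3.55e-06). Without WT replicate 3 these values were -0.37, -0.42 and 0.27, each still past the test.

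Of 24 mitoribosome assembly factors, 9 were higher and 4 lower in KO, with a median log2 fold change of 0.04. The GTPase MTG1, which acts late in assembly of the large subunit, had 9.67, 7.41 and 9.91 CPM in WT and 14.9, 16.4 and 15.9 CPM in KO (0.84, edgeR adjusted p = 6.79e-09). GTPBP10, another GTPase of large-subunit assembly, had 81.4, 80.4 and 83.6 CPM in WT and 119, 117 and 124 CPM in KO (0.55, edgeR adjusted p = 1.85e-11). NOA1, a GTPase linked to the small subunit, had 38.0, 35.6 and 36.4 CPM in WT and 48.8, 49.0 and 52.5 CPM in KO (0.45, edgeR adjusted p = 5.98e-08). MTG1, GTPBP10 and NOA1 were higher in every KO library, while FASTKD2, an RNA-binding factor of large-subunit assembly, fell with -0.42 (edgeR adjusted p = 3.08e-07). Not all GTPases of the list were higher, since ERAL1, which acts on the small-subunit rRNA, had 78.2, 81.4 and 80.2 CPM in WT and 67.9, 75.1 and 73.2 CPM in KO (-0.15, edgeR adjusted p = 0.0141). The shares called, 37.5% higher and 16.7% lower, stood beside 31.9% and 32% of all tested genes.

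Of 17 mitochondrial translation factors, 3 were higher (17.6%) and 6 lower (35.3%), with a median of -0.01. MTRF1, a release factor, and MTFMT, which formylates the initiator methionine, fell with log2 fold changes of -0.53 (edgeR adjusted p = 1.03e-06) and -0.51 (edgeR adjusted p = 1.69e-07). PDF, the peptide deformylase, was at most 0.977 CPM in any library and passed narrowly with 0.77 ± 0.33 (SE, edgeR adjusted p = 0.0435), with overlapping groups. Of 18 mitochondrial aminoacyl-tRNA synthetases, 5 were higher (27.8%) and 8 lower (44.4%), against the same 31.9% and 32% of all tested genes, with a median of -0.08, among them SARS2 with -0.73, RARS2 with -0.44 (edgeR adjusted p = 1.53e-08) and LARS2 with 0.55 (edgeR adjusted p = 1.14e-10). Across the translation factor, assembly factor and synthetase lists, 5 genes lie on chromosome 3 or 5, and all 5 were higher, where 57.6% of all tested genes on these chromosomes were, namely the elongation factors GFM1 (0.25) and GFM2 (0.36), the helicase DHX30 (0.20), HARS2 (0.41) and LARS2 (0.55). They were picked out by position after their values were known.

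Near-identical copies and overlapping genes limit some of these values. Of the 78 members, 40 have exons that overlap another listed gene, 15 on the same strand and 29 on the opposite one, and whether the counting used strand is not given in the sources used here. Among the 38 without such an overlap, 8 were higher (21.1%) and 17 lower (44.7%), with a median log2 fold change of -0.09. The 15 with an overlap on the same strand comprised 1 higher (6.67%) and 9 lower (60%), with a median of -0.24. The 29 with one on the opposite strand comprised 7 higher (24.1%) and 10 lower (34.5%), with a median of -0.02. Over all tested genes, 31.9% were higher and 32% lower. The part of shared reads in this was not tested. The annotation holds 78 pseudogenes named after 36 of the members among the listed genes, and together they took 1471 counts, 0.219% of the members' 671170 counts. Most of these, 1066 counts, were in MRPL35P2, equal to 9.47% of the counts of MRPL35.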

How the data were processed

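RNA-seq libraries of A2780 WT cells (n = 3) and of the A2780 CDK12 KO clone (n = 3) were compared, with groups taken from the genotype label of each library. The authors deposited raw counts per Ensembl gene. Their notes name FastQC, STAR and HTSeq with genome build GRCh38, and versions, annotation release and strand setting are not given in the sources used here. Library preparation was directional and reads were single-ended. Positions, biotypes and symbols came from GENCODE release 44, which held 56321 of the listed identifiers (93.1%) and 15989 of those tested. The chi-square of counts between libraries of a group was 1.69 to 6.98 per degree of freedom, so no pair agreed within counting error. Floors cover counting error only.

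In R 4.3.3, edgeR 4.0.16 was run with TMM factors, filterByExpr (minimum count 10, minimum total count 15) and its quasi-likelihood test, two-sided, with Benjamini-Hochberg adjustment over 16198 genes. The study's own test, voom/limma (limma 3.58.1), and DESeq2 1.42.0 were alternatives, beside other scalings and filters, a stricter threshold, other member sets and each library left out. On simulated counts for this comparison over 16198 genes, edgeR recovered 100 of 100 genes changed by 0.5 and 100 of 100 changed by 1 on the log2 scale, with 4 false calls. These changes were balanced in direction and planted in few, well-read genes, with the same dispersion for every gene. In the data 63.9% of genes were called and many changes were smaller, so the simulation does not give the error rates of the calls reported. CPM used the TMM-scaled totals. Overlaps of exons were found with bedtools 2.31.1, and RefSeq promoters of GRCh38.p14 were searched by letters.

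The genes named were all members on chromosomes 3 and 5, the 8 largest decreases and 8 largest increases among members called, the 3 highest and 3 lowest WT levels per kilobase, the MRPS18 paralogs, ribosomal proteins with other symbols, the mitochondrial rRNAs and CDK12, with the largest changes of each pathway list. The members and lists were chosen with earlier results of these data known. No set of members was tested as a whole. The summed level of the leukocyte marker list is not reported here.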

Additional observations from a re-analysis of the deposited data

How the results depend on the processing

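No paired analysis was possible because the numbers in the labels run from 1 to 6 over both groups, so that none is shared by a WT and a KO library. Of the values for single genes, 438 kept their direction and their side of the threshold under an alternative, 14 lost and 3 gained a call, and 12 changed sign, all of the last in genes close to 0. Of the summaries over the members, 97 stayed within the spread or within 1.5 times the reported count and 14 moved. The causes of these shifts were not tested.

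With upper-quartile factors, which moved the median of all tested genes by 0.03, the median log2 fold change was -0.0363 over the members and 0.0612 over those on chromosomes 3 and 5, MRPL22 had 0.00422 and MRPS21 0.0258. With at least 10 counts in every library, which leaves out MRPS24, the median on chromosomes 3 and 5 was 0.057 and MRPS21 had 0.0217. With no filter beyond 1 count, MRPS21 had 0.00256. Among the 38 members whose exons overlap no other gene, 17 were lower (44.7%) and 8 higher (21.1%), fewer because fewer genes were counted. All tested genes were lower in 32% and higher in 31.9% of cases. These 38 had a median of 0.0799 on chromosomes 3 and 5 and a difference from the others of 0.19. Adding the 5 proteins with other symbols gave a median of -0.13 on the other chromosomes. Means in place of medians gave 0.13 on chromosomes 3 and 5 and a difference of 0.24. Without MRPS36, an alternative chosen after the data were seen, the median on chromosomes 3 and 5 was 0.00527.

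Leaving out 1 library at a time gave 26 to 33 members lower and 12 to 17 higher. All tested genes were then lower in 29.39% to 30.85% of cases and higher in 28.65% to 30.04%. The median ran from -0.10 (without WT replicate 2) to -0.0541 over the members, from 0.03 to 0.05 on chromosomes 3 and 5 and from -0.13 (without WT replicate 2) to -0.0911 on the others, and the difference between the chromosome groups from 0.12 to 0.18 (without KO replicate 2). MRPL22 ran from -0.0794 to 0.0286, MRPS21 from -0.0447 to 0.0273, MRPS24 from -0.21 to 0.17 and MT-RNR2 from -0.0699 to 0.000953. By voom/limma 33 members were lower and 16 higher, beside 31.9% and 31.7% of all tested genes. By DESeq2 31 were lower and 13 higher, beside 29.2% and 28.1%. At an adjusted p under 0.01, 25 were lower and 11 higher in edgeR, and no share over all tested genes is given for that threshold.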
